A study of Mus musculus with 4 samples.

Results

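Synaptic vesicle and exocytosis genes encode the proteins that fill, dock, prime, fuse and recover the vesicles from which neurons release transmitter. The set examined here holds 48 mouse genes listed by symbol, and 47 of them have a row among the 13289 genes of the deposited expression table. The remaining gene, Syt17, was not analysed here. All 47 passed the filter on low counts, and the lowest count of any of them in any library was 37 reads.

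The samples were cerebral cortices of mouse embryos at embryonic day 15, in 2 control libraries (marked WT in the titles) and 2 libraries of an Lhx2 conditional knockout, called Lhx2 cKO. Polyadenylated RNA from fresh tissue was sequenced. The Cre driver, the targeted allele, the strain, the sex and any pooling of embryos are not given in the sources used here, nor is any agent or treatment. Eif2s3y, on the Y chromosome, and Kdm5c and Kdm6a, on the X chromosome, had an edgeR adjusted p under 0.05 between the groups. Whether the sex of the embryos differed between the groups was not tested. Nothing says whether libraries of a group came from separate embryos, so p-values measure the spread between these samples, which may be technical. Lhx2 encodes a LIM-homeodomain transcription factor of cortical progenitors. Its level was 311 and 293 CPM (the gene's counts scaled to a common library total) in control and 244 and 241 CPM in Lhx2 cKO. The log2 fold change was -0.31 (SE 0.0976, edgeR adjusted p = 0.0191). Without control 1 it was -0.25 (adjusted p = 0.176), without Lhx2 cKO 1 it was -0.28 (0.102) and without Lhx2 cKO 2 it was -0.34 (0.0538), so the call was lost in these 3 fits. It was kept without control 2 (-0.38, adjusted p = 0.0169). Counts over the whole gene include exons that the targeting may leave in place, so they do not show how much functional transcript was left. Library totals ranged from 22294237 to 24609627 counts.

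Release follows a cycle. A transporter loads transmitter into a vesicle, Rab3 and active zone scaffolds bring the vesicle to the release site, and Unc13 and Cadps proteins prime it. The SNARE proteins of vesicle and plasma membrane then zip together, complexins hold the assembled complex, and synaptotagmins trigger fusion when they bind calcium. Nsf and its adaptor take the SNARE complex apart, and clathrin adaptors, dynamin, synaptojanin and endophilin recover the membrane. In the embryonic cortex these genes are switched on as neurons leave the progenitor zones and mature, while synapses themselves are still sparse.

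Lhx2 cKO cortex had moderately higher levels of a share of these genes, led by synaptotagmins and by Sv2c, and a lower level of the priming factor Cadps. A gene is said to be called when its Benjamini-Hochberg adjusted p over all 13288 genes tested was under 0.05 in edgeR's quasi-likelihood test. Of the 47 genes, 15 (31.9%) were called higher in Lhx2 cKO, beside 11.6% of all genes tested. One gene, Cadps, was called lower, which is 2.13% beside 9.17% of all genes tested. In all, 16 of the 47 (34.0%) were called, beside 20.8% of all genes tested. The rises spanned 1.201-fold to 3.76-fold with a median of 1.33-fold, and only 5 called members, Sv2c, Syt1, Syt7, Syt16 and Cadps, changed by at least 1.5-fold. At that size the members' share was 10.6%, and the share of all tested genes was 8.88%. The median log2 fold change was 0.15 over the 47 genes and 0.003 over all genes tested.

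Library by library, for 22 of the 47 genes (46.8%) both Lhx2 cKO libraries lay above both control libraries in CPM, beside 28.9% of all genes tested. For 7 (14.9%) both lay below, beside 28.6%, and for the other 18 the groups overlapped. None of the 16 called genes had overlapping groups, and of the 2758 genes called over all genes only 11 had. With 2 libraries per group, non-overlap nearly follows from the call and adds no support to it. Of the 31 genes that were not called, 25 had a 95% interval of the fold change that stayed within 1.5-fold in either direction. The other 6, Syt2, Syt13, Doc2b, Sv2b, Syn3 and Cadps2, had wider intervals, and none had a group mean above 12.1 CPM. For those 6, a change of 1.5-fold lay within the interval in at least 1 direction.

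**Figure D1:**
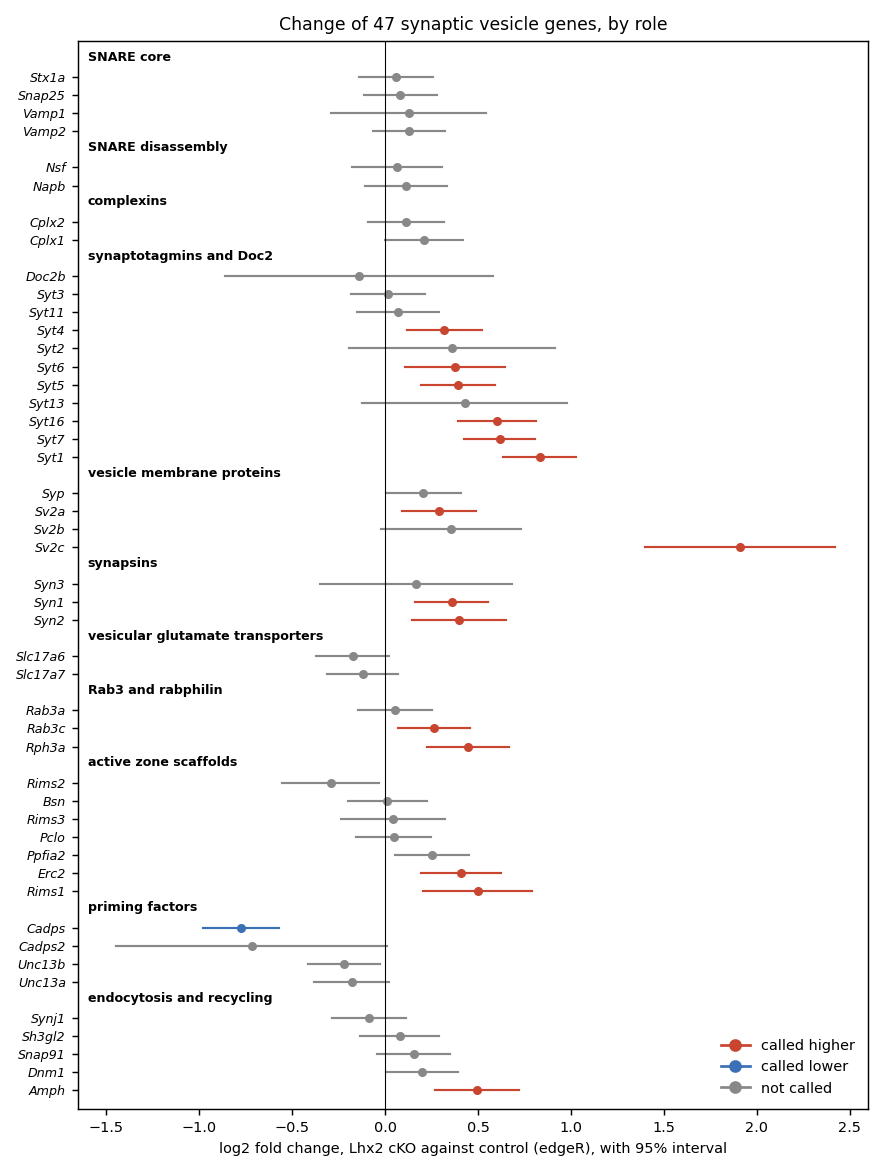
Log2 fold change between Lhx2 cKO and control (horizontal axis, positive where Lhx2 cKO was higher) for each of the 47 genes, grouped by role, with the edgeR estimate as a point and its 95% interval as a line. Red marks the 15 genes called higher, blue marks Cadps, called lower, and grey marks the 31 not called. Sv2c lies at 1.91 and Cadps at -0.78.

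Summed over the 47 genes, the level was 4959 and 5038 CPM in control and 5506 and 5403 CPM in Lhx2 cKO, a ratio of 1.09. Beside it, 15 general neuron genes outside the vesicle cycle, such as Tubb3, Mapt and Stmn2, summed to 8743 and 8823 CPM in control and 10034 and 9822 CPM in Lhx2 cKO, a ratio of 1.13. Of these 15, 6 were called higher and 3 lower (60% called, beside 20.8% of all genes tested), with a median log2 fold change of 0.15. On the log2 scale Nefl (1.12), Stmn2 (0.60) and Mapt (0.45) were among those that rose, and Elavl4 (-0.55) and Rbfox3 (-0.43) among those that fell. In bulk tissue, a different number of cells of a type and a different amount of RNA per cell cannot be told apart.

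Markers of other cells moved between the groups as well. Beside the counts that follow, 11.6% of all genes tested were called higher and 9.17% lower. The 10 interneuron markers summed to 335 to 349 CPM in control and 443 to 470 CPM in Lhx2 cKO, with 4 called higher, which were Npy, Sst, Slc32a1 and Gad2. The 6 Cajal-Retzius markers with a row summed to 290 to 333 CPM in control and 456 to 555 CPM in Lhx2 cKO, with 4 called higher. The 9 microglia markers summed to 115 to 121 and 244 to 257 CPM, with 8 called higher. The 8 intermediate progenitor markers summed to 893 to 907 and 576 to 591 CPM, with 5 called lower, and of 12 cell cycle genes 10 were called lower. Thalamic markers were low in both groups, at 17.6 to 18.1 and 19.0 to 20.7 CPM over 6 genes, with 1 called higher. That is 16.7% called, beside 20.8% of all genes tested. Of the other lists, 5 of 6 oligodendrocyte precursor, 4 of 6 astrocyte and 4 of 8 vascular and meningeal markers were called higher, with 2 of the vascular ones lower. Of 11 radial glia markers 1 was higher and 4 lower, of 6 red blood cell genes 1 was higher and 5 lower, and the 1 choroid plexus gene with a row was not called. None of the listed markers with a row was at 0 in any library, the lowest being at 11 reads. Their part in the vesicle gene differences was not tested.

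**Figure D2:**
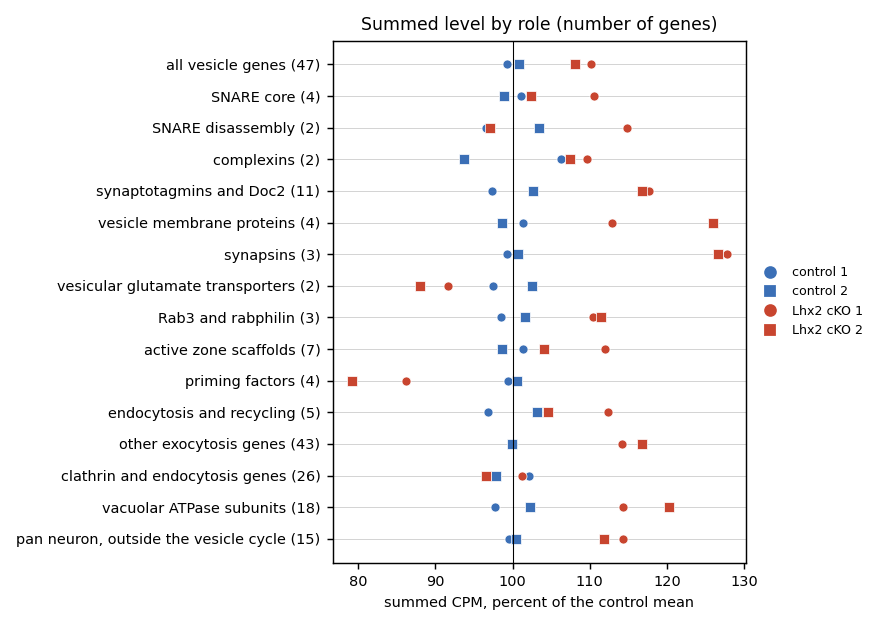
Summed CPM of each role group, 3 further pathway lists and the general neuron list in each library, as a percent of the control mean (horizontal axis). Circles are replicate 1 and squares replicate 2, blue for control and red for Lhx2 cKO. Synapsins lie highest in Lhx2 cKO, with a ratio of group means of 1.27, and priming factors lowest, with 0.826.

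Per length, the members spanned a wide range of levels in control cortex. Levels between genes are compared in RPKM, which is CPM per 1000 bases of the deposited gene length. Syt11 was highest at 199 ± 3.07 RPKM and Rab3a next at 118 ± 2.34 RPKM (SD, n = 2). Syt4 (65.5 ± 8.15), Syt5 (64.1 ± 2.43) and Cplx2 (60.2 ± 5.85 RPKM) followed and did not differ beyond their spread. At the low end, Sv2c was at 0.219 ± 0.00496 and Cadps2 at 0.283 ± 0.0224 RPKM. In control, 21 of the 47 genes exceeded 10 RPKM and 7 were under 1 RPKM. The median of the members was 6.42 RPKM, and that of all genes tested was 5.80 RPKM.

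**Figure D3:**
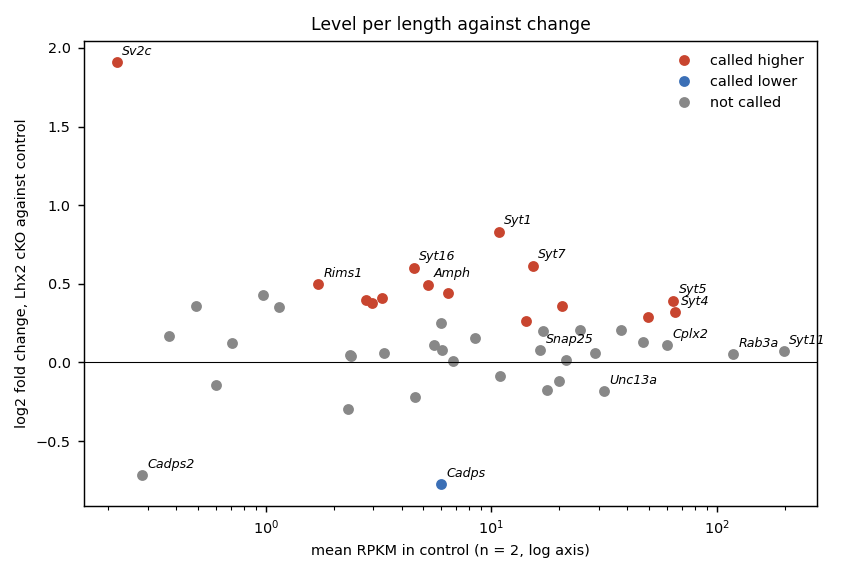
Mean RPKM in control (horizontal, log axis, n = 2) against the log2 fold change of Lhx2 cKO over control (vertical) for the 47 genes, coloured by call. The most abundant members, Syt11 and Rab3a, lie near 0 (0.07 and 0.05), while Sv2c, at 0.219 RPKM, lies at 1.91.

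Synaptotagmins, the calcium sensors and related proteins of vesicles and plasma membrane, held 6 of the 15 rises. With Doc2b they are 11 genes, of which 6 were called higher, beside 11.6% of all genes tested. Syt1, the sensor for fast synchronous release, was at 83.6 and 96.6 CPM in control and at 153 and 165 CPM in Lhx2 cKO. Both Lhx2 cKO libraries were well above both control libraries. Syt1 (ENSMUSG00000035864.15) averaged 90.1 ± 9.17 CPM in control and 158.9 ± 8.03 CPM in Lhx2 cKO (SD, n = 2) and rose by 0.83 on the log2 scale (SE 0.0973, edgeR adjusted p = 1.11e-08). Syt7, a high-affinity sensor tied to slow and asynchronous release, was at 116 and 113 CPM in control and 178 and 171 CPM in Lhx2 cKO. It rose by 0.62 on the log2 scale (SE 0.0942, edgeR adjusted p = 3.06e-06). Syt16, an atypical family member without the usual calcium-binding residues, was at 37.8 and 44.9 CPM in control and 66.6 and 58.3 CPM in Lhx2 cKO, which is a rise of 0.60 on the log2 scale (adjusted p = 2.21e-05). These 3 genes kept their call whichever library was left out.

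The other synaptotagmins that rose did so by less. Syt5 was at 149 and 157 CPM in control and 186 and 211 CPM in Lhx2 cKO (log2 fold change 0.39, adjusted p = 0.00276). Syt4, which lacks normal calcium binding and acts in peptide vesicle release, was at 232 and 277 CPM in control and 313 and 317 CPM in Lhx2 cKO (0.32, adjusted p = 0.0179). Syt6 was at 17.5 and 16.8 CPM in control and 23.2 and 21.1 CPM in Lhx2 cKO (0.38, adjusted p = 0.0377). For each of these 3 genes the groups did not overlap, but the calls were less firm. Without Lhx2 cKO 2 the adjusted p was 0.1498 for Syt5 and 0.140 for Syt4, without control 1 it was 0.309 for Syt4, and Syt6 lost its call whichever library was left out, with adjusted p from 0.0886 to 0.197. DESeq2 and scaling by library totals also left Syt6 uncalled.

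Syt11, the most abundant of the 47 genes and one that does not bind calcium, was at 1022 and 1045 CPM in control and 1097 and 1059 CPM in Lhx2 cKO. Its log2 fold change of 0.07 (95% interval -0.15 to 0.29) was not called. Syt3 was at 66.0 and 68.1 CPM in control and 68.9 and 65.7 CPM in Lhx2 cKO, so that its groups overlapped. Syt2, the fast sensor of hindbrain and spinal synapses, Syt13 and the calcium sensor Doc2b were scarce, at 1.64 to 6.06 CPM in any library, and were not called. Within the summed RPKM of the 10 synaptotagmins, Syt1 took 2.68% and 2.93% in the control libraries against 4.11% and 4.39% in Lhx2 cKO. Syt11 took 52.6% and 50.7% against 47.2% and 45.3%. The shares did not overlap between the groups for either gene and were not tested. Shares of a common total depend on each other, so their non-overlap adds no support to the call on Syt1. The share of Syt11 was lower although its own CPM lay above control in both Lhx2 cKO libraries.

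**Figure D4:**
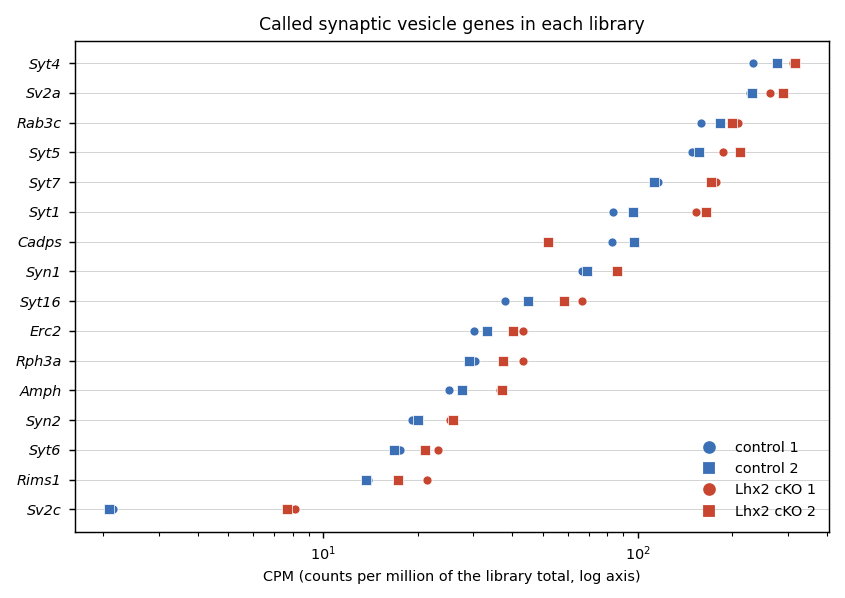
CPM (horizontal, log axis) of the 16 called genes in each library, with circles for replicate 1 and squares for replicate 2, blue for control and red for Lhx2 cKO. For each gene the 2 red points lie on one side of the 2 blue points, to the left for Cadps and to the right for the other 15. Nearly all genes called in these data separate in this way.

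Among vesicle membrane proteins, Sv2c showed the largest fold difference of the 47 genes. The SV2 proteins are glycoproteins that span the vesicle membrane, and Sv2c is the isoform best known from the basal ganglia. Sv2c (ENSMUSG00000051111.17) had 53 and 51 reads in control and 182 and 182 reads in Lhx2 cKO, which is 2.15 and 2.09 CPM against 8.16 and 7.71 CPM. It rose by 1.91 on the log2 scale (SE 0.253, edgeR adjusted p = 1.69e-07), and it ranged from 1.86 to 1.95 with one library left out. Sv2c stayed a minor isoform even so, with 0.441% and 0.421% of the summed SV2 RPKM in the control libraries against 1.43% and 1.22% in Lhx2 cKO. Sv2a, the main isoform, was at 227 and 231 CPM in control and 264 and 290 CPM in Lhx2 cKO (log2 fold change 0.29, adjusted p = 0.0310). Its call was lost without control 1 (0.109), control 2 (0.120) or Lhx2 cKO 2 (0.414). Sv2b was at 9.51 and 9.73 CPM in control and 9.28 and 14.99 CPM in Lhx2 cKO, so that 1 library alone was high. Syp, which encodes synaptophysin, the most common marker of synaptic vesicles, was at 203 and 187 CPM in control and 211 and 236 CPM in Lhx2 cKO and was not called (0.21, adjusted p = 0.149).

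The promoter of Sv2c is shown because this gene had the largest rise. The sequence is the 250 bases before the annotated start, at chr13:96132578-96132827 on the minus strand of GRCm38.p6 (RefSeq), written 5′ to 3′, with 70.8% G and C. It held none of the 4 motifs searched, which are given with the motif counts, so no letters are in capitals.
Sv2c: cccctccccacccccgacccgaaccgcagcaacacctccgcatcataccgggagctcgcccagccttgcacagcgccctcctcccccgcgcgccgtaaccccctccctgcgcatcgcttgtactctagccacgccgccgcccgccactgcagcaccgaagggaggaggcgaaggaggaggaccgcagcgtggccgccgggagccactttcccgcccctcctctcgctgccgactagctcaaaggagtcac

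Synapsins coat vesicles and hold them in the reserve pool. Of the 3 genes 2 were called higher, beside 11.6% of all genes tested, and this count is given as a description. Syn1 was at 66.8 and 69.1 CPM in control and 86.6 and 86.3 CPM in Lhx2 cKO (log2 fold change 0.36, adjusted p = 0.00597). Syn2 was at 19.2 and 20.1 CPM in control and 25.3 and 26.0 CPM in Lhx2 cKO (0.40, adjusted p = 0.0191). Replicates were close in both groups for both genes, and the groups did not overlap. Syn3 was at 3.60 to 5.79 CPM in any library and was not called. Proportions within the family were alike in the libraries, with Syn1 at 86.4% to 86.9% of the summed synapsin RPKM. The call on Syn1 was lost without Lhx2 cKO 2 (adjusted p = 0.0673). That on Syn2 was lost without control 1 (0.111), control 2 (0.0660) or Lhx2 cKO 2 (0.166), and with DESeq2 (0.0525).

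The Syn1 promoter is printed because it held 2 of the motifs. The 250 bases before the start lie at chrX:20920919-20921168 on the minus strand of GRCm38.p6 (RefSeq). The capitals mark first the left part of the RE1 element, which the repressor Rest binds, and then the cyclic AMP response element.
Syn1: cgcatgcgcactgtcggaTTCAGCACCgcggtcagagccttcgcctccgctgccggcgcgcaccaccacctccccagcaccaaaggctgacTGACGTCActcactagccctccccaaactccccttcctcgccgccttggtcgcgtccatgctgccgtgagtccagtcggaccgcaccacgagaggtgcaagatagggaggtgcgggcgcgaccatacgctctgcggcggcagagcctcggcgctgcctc

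Rab3 proteins are the small GTPases of synaptic vesicles, and rabphilin (Rph3a) is an effector of theirs. Rph3a was at 30.4 and 29.2 CPM in control and 43.2 and 37.4 CPM in Lhx2 cKO (log2 fold change 0.44, SE 0.109, edgeR adjusted p = 0.00241). It stayed called with any library left out. Rab3c was at 159.7 and 183 CPM in control and 208 and 199.9 CPM in Lhx2 cKO (0.26, adjusted p = 0.0428). This call was near the threshold and was lost without control 1 (0.360), Lhx2 cKO 1 (0.108) or Lhx2 cKO 2 (0.166), and with scaling by library totals. In the authors' deposited table Rab3c had an adjusted p of 0.0552, and the other 15 called genes were under 0.05 there too. That table rests on the same counts. Its own mark of change, up or down, was given to only 5 members, Syt1, Syt7, Syt16, Sv2c and Cadps. Rab3a, the main isoform, was at 267 and 259.5 CPM in control and 261 and 280.2 CPM in Lhx2 cKO, with overlapping groups.

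At the active zone, the scaffold that holds vesicles and calcium channels at the release site, 2 of 7 genes were called higher. Of all genes tested 11.6% were called higher, and the count over 7 genes is given as a description. Rims1, a Rab3-binding scaffold, was at 13.9 and 13.7 CPM in control and 21.4 and 17.4 CPM in Lhx2 cKO (log2 fold change 0.50, adjusted p = 0.0106). Its call was lost without control 2 (0.0606) or Lhx2 cKO 1 (0.143). Erc2, which links scaffold proteins to each other, was at 30.3 and 33.1 CPM in control and 43.4 and 40.2 CPM in Lhx2 cKO (0.41, adjusted p = 0.00436). Without control 1 its adjusted p was 0.0583. Rims2, the paralog of Rims1, was at 21.9 and 26.05 CPM in control and 19.96 and 18.9 CPM in Lhx2 cKO and was not called (-0.29, adjusted p = 0.104). Within each library the ratio of Rims1 to Rims2 per length was 0.812 and 0.674 in the control libraries against 1.38 and 1.18 in Lhx2 cKO. As Rims1 lay above and Rims2 below in both Lhx2 cKO libraries, the ratios could not overlap, and they were not tested. The side of 1 on which they lie depends on the lengths used. The deposited length of Rims1 (8103 bases) differs from its exon length in the GENCODE M21 annotation (7362 bases).

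The giant scaffolds were close in level between the groups. Bsn (bassoon) was at 122 and 94.7 CPM in control and 111 and 106 CPM in Lhx2 cKO, and both Lhx2 cKO libraries lay between the control libraries. Pclo (piccolo) was at 52.1 to 57.2 CPM over the 4 libraries. Rims3 ranged from 16.4 to 21.5 CPM with overlapping groups. Ppfia2 (liprin alpha 2) was at 61.2 and 69.1 CPM in control and 80.6 and 73.7 CPM in Lhx2 cKO. Its groups did not overlap, and it missed the threshold (0.25, adjusted p = 0.0612). Its counts are uncertain, since 22.34% of its exon bases are shared with Acss3 on the other strand in the GENCODE M21 annotation. Acss3 has no row among the deposited genes.

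For the 4 priming factors both Lhx2 cKO libraries lay below both control libraries, as they did for 28.6% of all genes tested. Only 1 of the 4, Cadps, was called lower, beside 9.17% of all genes tested. Counts over 4 genes are given as a description. Cadps encodes CAPS1, which primes dense-core vesicles and also acts at synaptic vesicles. It had 82.7 and 97.2 CPM in control and 52.4 and 51.8 CPM in Lhx2 cKO. Cadps (ENSMUSG00000054423.15) averaged 89.9 ± 10.3 CPM in control and 52.1 ± 0.419 CPM in Lhx2 cKO (SD, n = 2) and fell by 0.78 on the log2 scale (SE 0.1004, edgeR adjusted p = 1.07e-07), and it stayed called with any library left out (-0.88 to -0.68). Its paralog Cadps2 was scarce, at 2.56 and 2.86 CPM in control and 1.70 and 1.57 CPM in Lhx2 cKO, and was not called (-0.72, 95% interval -1.45 to 0.01). Unc13a, which encodes Munc13-1, the main primer of cortical synapses, was at 401 and 393 CPM in control and 362 and 335 CPM in Lhx2 cKO (-0.18, adjusted p = 0.208). Unc13b was at 104 and 104 CPM in control and 95.6 and 81.9 CPM in Lhx2 cKO (-0.22, adjusted p = 0.1004). Neither Unc13 gene was called.

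Cadps is shown as the only called fall of the set. The 250 bases before its start lie at chr14:12823080-12823329 on the minus strand of GRCm38.p6 (RefSeq), with 58.0% G and C and no motif match.
Cadps: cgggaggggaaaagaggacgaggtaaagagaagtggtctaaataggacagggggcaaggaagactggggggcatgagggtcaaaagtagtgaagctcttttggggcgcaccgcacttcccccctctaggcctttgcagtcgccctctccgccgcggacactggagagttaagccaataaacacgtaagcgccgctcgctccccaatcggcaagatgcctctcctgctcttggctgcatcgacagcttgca

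None of the SNARE, SNARE disassembly and complexin genes of the set was called. Synaptotagmins, which trigger fusion, are given above and are not counted here. The 4 SNARE genes, the pair that disassembles SNARE complexes and the pair of complexins had 0 calls of 8 genes in edgeR, 0 with an unadjusted p under 0.05, and 0 calls in DESeq2 or limma-voom. Of all genes tested, 20.8% were called and 32.01% had an unadjusted p under 0.05, and the count over 8 genes is given as a description. The 95% intervals of these 8 stayed within 1.5-fold in either direction. Vamp1, the vesicle SNARE of brainstem and spinal cord, had the widest, from -0.29 to 0.54 on the log2 scale. Vamp2, the vesicle SNARE of forebrain, was at 185 and 174 CPM in control and 194 and 195 CPM in Lhx2 cKO. Snap25 was at 106 and 117 CPM in control and 129 and 106 CPM in Lhx2 cKO, and Stx1a, the partner of Snap25 in the plasma membrane, was at 80.8 and 73.6 against 82.3 and 77.5 CPM. Cplx2 was at 317 and 276 CPM in control and 326 and 311 CPM in Lhx2 cKO. Cplx1 was at 55.7 and 52.5 against 58.2 and 65.7 CPM, a log2 fold change of 0.21 (adjusted p = 0.160). Napb, the adaptor of the ATPase Nsf, was at 35.1 and 43.5 CPM in control and 45.5 and 38.9 CPM in Lhx2 cKO, and Nsf was at 25.9 to 31.6 CPM. Both had overlapping groups.

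The vesicular glutamate transporters, which load the transmitter of cortical projection neurons, lay slightly lower in Lhx2 cKO and were not called. Slc17a7 (VGLUT1) was at 110 and 106 CPM in control and 100.5 and 97.1 CPM in Lhx2 cKO (log2 fold change -0.12, adjusted p = 0.410). Slc17a6 (VGLUT2), the form of young neurons, was at 87.8 and 102 CPM in control and 85.5 and 81.4 CPM in Lhx2 cKO (-0.17, adjusted p = 0.219). For both genes the groups did not overlap, by a small margin. Slc32a1, the transporter that loads GABA, is no member of the set and was chosen after its values were seen. It was at 15.2 and 16.2 CPM in control and 22.2 and 24.2 CPM in Lhx2 cKO (0.58, edgeR adjusted p = 0.00141).

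Among the 5 recycling genes Amph alone was called higher, beside 11.6% of all genes tested. Amph encodes amphiphysin, which bends membrane and brings dynamin to it. It was at 25.1 and 27.6 CPM in control and 36.6 and 37.0 CPM in Lhx2 cKO (log2 fold change 0.49, SE 0.112, adjusted p = 9.79e-04, edgeR) and stayed called with any library left out. Dnm1, the neuronal dynamin that cuts vesicles off, was at 87.6 and 90.8 CPM in control and 107 and 96.7 CPM in Lhx2 cKO (0.20, adjusted p = 0.144). Snap91, the clathrin adaptor AP180, was at 79.6 and 75.0 against 88.3 and 82.6 CPM. For Dnm1 and Snap91 the groups did not overlap, and neither was called. Sh3gl2 (endophilin A1) was at 37.3 to 42.2 CPM and Synj1 (synaptojanin) at 78.1 to 95.3 CPM, with overlapping groups.

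Other genes of the pathway, from lists outside the set, are given by counts and by up to 4 called genes of smallest p. Of 43 further exocytosis genes with a row, 8 were called higher and 2 lower (23.3% called, beside 20.8% of all genes tested), with a median log2 fold change of 0.03. Syngr3 (0.59), a relative of synaptophysin, the secretory carrier proteins Scamp5 (0.58) and Scamp1 (0.47), and Rab3b (0.83) rose. Of 26 clathrin and endocytosis genes, 4 were called higher and 3 lower (26.9% called), with a median of 0.01. Dnajc6 (0.41), which helps strip the clathrin coat, the dynamin gene Dnm3 (0.40) and the endophilin gene Sh3gl3 (0.45) rose, and Ston2 (-0.76), which sorts synaptotagmin during endocytosis, fell. Of 18 subunits and accessory proteins of the vacuolar ATPase, the proton pump that powers vesicle filling, 5 were called higher in edgeR (27.8% called), and the median was 0.14. They included Atp6ap1 (0.39), Atp6v0c (0.40), Atp6ap2 (0.37) and Atp6v0d1 (0.34). For the exocytosis and the clathrin and endocytosis lists, the shares called were near that over all genes. Those counts are no result about these 2 lists. The vacuolar ATPase calls were all higher, at 27.8% beside 11.6% of all genes tested. For 13 of the 18 genes both Lhx2 cKO libraries lay above both control libraries, beside 28.9% of all genes tested. Their summed CPM had a ratio of 1.17. Whether this list differs from all genes was not tested.

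**Figure D5:**
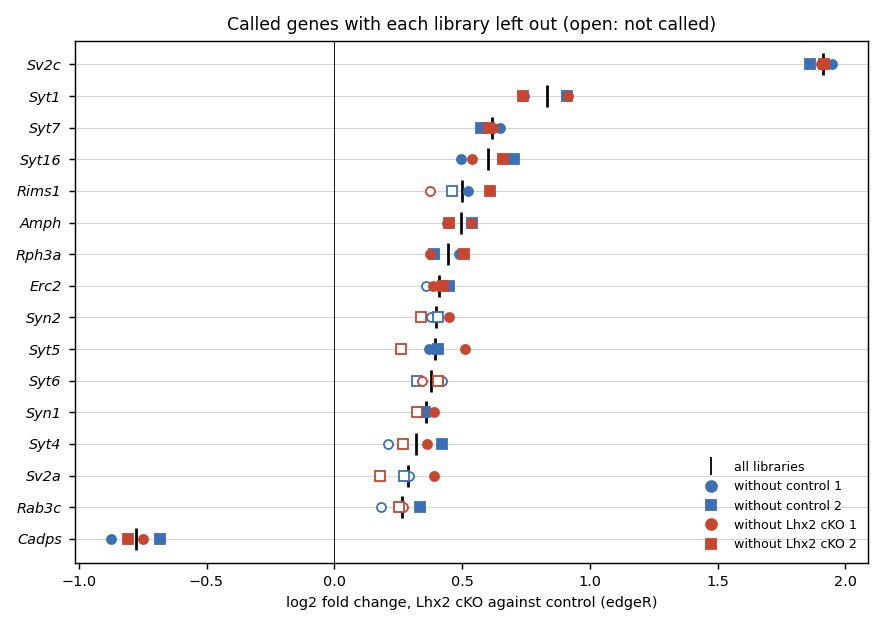
Log2 fold change (horizontal axis) of the 16 called genes with all libraries (black bar) and with each library left out in turn (blue for a control, red for an Lhx2 cKO library, circles for replicate 1 and squares for replicate 2). Filled symbols are called and open ones are not. Sv2c, Syt1, Syt7, Syt16, Amph, Rph3a and Cadps have filled symbols throughout.

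Leaving out a library left 1 in its group, whose spread was then taken to be like that of the other group. The number of members called was 16 with all libraries, 10 without control 1, 12 without control 2, 14 without Lhx2 cKO 1 and 9 without Lhx2 cKO 2. Over all genes tested the count went from 2758 to 1790 without control 1 and to 1633 without Lhx2 cKO 2. The plot of left-out libraries shows that 7 of the 16 genes kept their call throughout, and that the estimates of all 16 kept their sign. Since the groups did not overlap for these genes, the kept sign is no sign of stability.

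Strand use in counting is not given in the sources used here, and 17 of the 47 genes share exon bases with another gene in GENCODE M21 (GRCm38). Of the called genes these are Syt4 (14.5% of its exon bases), Syt6 (8.67%), Syt7 (5.13%), Syt16 (2.001%), Syn2 (1.28%), Erc2 (1.09%) and Syn1 (0.273%), each with a gene on the other strand. For these genes, reads of both genes cannot be told apart if strand was not used, so their values are uncertain. The partners of Syt6, Syn2 and Syn1 have a row among the deposited genes, and those of Syt4, Syt7, Syt16 and Erc2 have none. The other 9 called genes, Sv2c, Syt1 and Cadps among them, share none.

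Short motifs in the promoters were counted as a description of the set. RefSeq promoters of GRCm38.p6, 250 bases before to 50 bases after the start, were at hand for 38 of the 47 genes and for 10458 of the genes in the table. Both strands were searched for TAATTA (the core that LIM-homeodomain proteins such as Lhx2 bind), TGACGTCA (the cyclic AMP response element), TTCAGCACC (the left part of RE1) and GGACAGCGC (its right part). TAATTA was found for 2 of 38 members (5.26%), beside 3.19% of all genes, and TGACGTCA for 2 of 38 (5.26%), beside 3.61%. The left part of RE1 was found for 2 of 38 (5.26%), beside 0.583%, and the right part for 1 (2.63%), beside 0.851%. With 1 or 2 genes behind each share, these counts describe single promoters.

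The matches to TAATTA and RE1 are shown with capitals on the matched letters, each in 30 bases of GRCm38.p6. Slc17a6 lies at chr7:51624544-51624573 (plus strand, second annotated start) and Syt6 at chr3:103575009-103575038 (plus strand), both with TAATTA. Unc13a lies at chr8:71671725-71671754 (minus strand), just after its start, and holds both RE1 parts on the opposite strand, so they read as reverse complements here.
Slc17a6: attgtgaatgatTAATTAttcatgttgtag
Syt6: atagagcaccagTAATTAttacacctcgtt
Unc13a: agGCGCTGTCCgcgcccccGGTGCTGAAgc
Of these genes and Syn1, which holds the left part of RE1, Syn1 and Syt6 were called higher in Lhx2 cKO, and Slc17a6 and Unc13a were not called.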

How the data were processed

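The authors deposited raw read counts per gene for 13289 genes in 4 libraries. The submitters' processing notes name Trim Galore, Subread, featureCounts, edgeR and build mm39. Annotation, strand use and the gene filter are not given in the sources used here. The lowest row total was 102 counts. Per the file headers, the deposited table also holds the authors' log2 fold change and mean log2 CPM, the authors' p-value and adjusted p-value, and their -log10 values. A further column marks genes as up, down or NS.

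Counts were tested with edgeR 4.0.16 in R 4.3.3: TMM factors (0.973 to 1.02), filterByExpr (minimum count 10, which removed 1 gene), glmQLFit and glmQLFTest for the difference between the groups, two-sided, with no covariate, with Benjamini-Hochberg adjustment over 13288 genes and a threshold of 0.05. SE is the absolute log2 fold change over the square root of F, and 95% intervals use its t quantile. CPM and RPKM use library totals and the deposited gene length, which equals the GENCODE M21 exon length for 44 of 47 members. A chi-square test of counts gave 13.9 per degree of freedom between the control replicates and 14.3 between those of Lhx2 cKO, above the sampling noise of 1 library deposited again. The script was tested on simulated data. Members, role groups, pathway lists and marker lists were chosen with earlier results of these data known. All called members and the member of highest RPKM in each role group are given with their 4 library values, and up to 4 called genes by smallest p are named in each pathway list. Alternatives were other scalings, filters, DESeq2 1.42.0, limma-voom (limma 3.58.1), a replicate block, a threshold of 0.01 and leaving out each library. Coordinates of promoters are of GRCm38.p6 and were not joined to the mm39 counts.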

Additional observations from a re-analysis of the deposited data

How the results depend on the processing

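With all libraries, the 47 genes and Lhx2 under 8 alternatives gave 384 log2 fold changes, and none turned its direction. In 380 the side of the threshold was also kept. The 4 exceptions were lost calls, of Syt6 and Rab3c with library totals and of Syt6 and Syn2 with DESeq2. The count of members called was 14 or 16 and their median log2 fold change 0.14 to 0.16. The shares of all calls that were higher ranged from 54.0% to 56.3%. At an adjusted p of 0.01, 10 members (9 higher) and 1697 of all genes were called, fewer by construction. The replicate numbers shared only a number (correlation of deviations -0.00780). With the replicate block, 16 members were called, the same 16, and 2874 of all genes.

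With a library left out, 9 to 14 members were called (8 to 13 higher), 1633 to 2396 of all genes, and the median of the members was 0.14 to 0.21; fewer samples were tested. Sv2b was called without Lhx2 cKO 1 only. The sign of 14 genes that were not called turned in at least 1 of these fits. Their log2 fold changes ranged from -0.182 to 0.223 for Bsn, from -0.00832 to 0.231 for Cplx2, from -0.621 to 0.561 for Doc2b, from -0.020 to 0.245 for Napb, from -0.058 to 0.179 for Nsf, from -0.038 to 0.134 for Rab3a, from -0.129 to 0.221 for Rims3, from -0.034 to 0.182 for Snap25, from -0.033 to 0.143 for Stx1a, from -0.079 to 0.685 for Sv2b, from -0.136 to 0.534 for Syn3, from -0.186 to 0.011 for Synj1, from -0.024 to 0.767 for Syt13 and from -0.175 to 0.373 for Vamp1. No direction is therefore given for them. The intervals of Syt2, Syt13, Doc2b, Sv2b, Syn3 and Cadps2, at group means of at most 12.1 CPM, reach beyond 1.5-fold. The part of depth in this was not tested, and replicates of Sv2b (207 and 354 reads in Lhx2 cKO) and Doc2b (89 and 40 in control) also lay apart.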
